A study of Homo sapiens with 2 samples.

Results

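Chemokines, interleukins, TNF, their receptors, the NF-kB transcription factors and related mediators of inflammation were examined in PC3, a human prostate cancer cell line, with a stable excess of the microRNA miR-95 or of a control microRNA. The genes were those whose annotated symbol matched a fixed set of name patterns (CXCL, CCL, CX3CL, IL followed by a digit, LIF, LIFR, OSM, CSF, TNF, TNFSF, TNFRSF, TNFAIP, PTGS, ICAM, CXCR, CCR, NFKB, NFKBI and REL). This gave 128 genes, each read by 1 probe set, of 13864 named genes in all. The patterns use no measured value. Of the tumour necrosis factor superfamily only TNF itself and the antisense locus TNFRSF14-AS1 were named here, and no probe set used here named a TNFSF or TNFAIP gene, CXCL1, IL1A, IL1B, IL6, IL6ST or NFKBIA. The symbols also took in 6 loci that are antisense RNAs, a divergent transcript, a pseudogene or a readthrough transcript.

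One culture was PC3 with stable overexpression of miR-95, and the other was PC3 with stable overexpression of a control miR. Both were kept in the same serum-containing medium, and the labels name neither the vector nor whether a line was 1 clone. Each culture gave 1 Affymetrix gene array, so no value has a replicate error and no difference was tested. In bulk RNA of a culture, fewer cells that express a gene and less RNA per cell cannot be told apart. The level of miR-95 could not be checked, because no probe set used here named its gene. Values are log2 expression as deposited, and the 2 arrays correlated at 0.9959 over 23641 probe sets. A difference is the log2 value with miR-95 less that with the control, after each array was centred on its median over genes, which was 7.495 with miR-95 and 7.46 with the control. Centring took 0.035 off every difference. All 4 measured epithelial markers (KRT8, KRT18, KRT19 and EPCAM) lay above these medians on both arrays, while CD14, LYZ and TYROBP of leukocytes lay below them on both arrays. CD68, a lysosomal protein that many cell types make, was the only 1 of 8 measured leukocyte-list genes above them.

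Inflammatory cytokines and chemokines are secreted proteins that recruit and instruct leukocytes, and tumour cells can make many of them. Their genes are commonly held at low output until NF-kB dimers, released from inhibitor proteins in the cytoplasm, reach kB sites in their promoters. PC3 is known for constitutive NF-kB activity and for secreting interleukin 8. MicroRNAs guide a silencing complex to messenger RNAs that pair with their seed, which usually lowers the level of those messenger RNAs. The mature miR-95 strands from RefSeq (GRCh38.p14, chromosome 4) are shown because they define what was overexpressed, with the seed, bases 2 to 8, in capitals. The sources used here do not say which strand the construct favoured, and target sites in the genes below were not searched.
hsa-miR-95-3p: uUCAACGGguauuuauugagca
hsa-miR-95-5p: uCAAUAAAugucuguugaauu

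The first set of promoters belongs to the 5 chemokines within the name patterns that carry the ELR motif before the first cysteines, the neutrophil attractants. These genes lie close together on chromosome 4. Of the 5, 4 read higher with miR-95, where 43.1% of all genes had a positive difference. CXCL6, CXCL5 and CXCL3 lay below the array medians on both arrays. Each line gives the 250 bases before the RefSeq transcription start (GRCh38.p14), at chr4:73740319-73740568 for CXCL8, chr4:73836428-73836677 for CXCL6, chr4:73998678-73998927 for CXCL5, chr4:74038690-74038939 for CXCL3 and chr4:74099196-74099445 for CXCL2. CXCL8 and CXCL6 are on the plus strand and the other 3 on the minus strand. Capitals mark matches, on either strand, to the kB motifs GGANTTTCC or GGAANTTCC or GGGNNTTCC, to the AP-1 motif TGANTCA, to the C/EBP motif TTGCNNAA and to the TATA motif TATAAA.
CXCL8: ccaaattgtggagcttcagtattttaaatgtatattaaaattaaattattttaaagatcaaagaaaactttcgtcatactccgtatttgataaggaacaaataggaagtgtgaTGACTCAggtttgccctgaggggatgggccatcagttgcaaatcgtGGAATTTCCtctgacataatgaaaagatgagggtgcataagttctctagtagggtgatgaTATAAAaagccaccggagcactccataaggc
CXCL6: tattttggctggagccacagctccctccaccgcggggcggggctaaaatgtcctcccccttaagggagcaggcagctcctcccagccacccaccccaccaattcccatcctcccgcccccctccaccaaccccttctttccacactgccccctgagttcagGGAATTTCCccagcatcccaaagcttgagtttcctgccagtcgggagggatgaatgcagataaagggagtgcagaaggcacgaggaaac
CXCL5: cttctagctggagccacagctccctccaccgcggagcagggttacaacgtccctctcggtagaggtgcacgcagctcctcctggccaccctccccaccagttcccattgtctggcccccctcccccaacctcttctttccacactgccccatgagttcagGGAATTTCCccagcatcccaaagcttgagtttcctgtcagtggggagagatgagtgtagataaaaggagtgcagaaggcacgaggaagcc
CXCL3: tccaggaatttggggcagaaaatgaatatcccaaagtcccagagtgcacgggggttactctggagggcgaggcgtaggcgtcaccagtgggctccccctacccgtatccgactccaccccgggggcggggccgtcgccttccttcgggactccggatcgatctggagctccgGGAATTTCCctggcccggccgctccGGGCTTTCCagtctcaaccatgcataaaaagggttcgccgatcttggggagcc
CXCL2: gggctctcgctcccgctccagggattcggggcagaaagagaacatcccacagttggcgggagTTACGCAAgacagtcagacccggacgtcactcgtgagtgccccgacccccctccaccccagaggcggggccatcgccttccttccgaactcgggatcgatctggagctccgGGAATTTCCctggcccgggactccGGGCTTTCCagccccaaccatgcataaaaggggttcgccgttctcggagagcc

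All 5 windows hold the same 9 letters, GGAATTTCC, which match both of the first kB motifs. The match starts 91 bases before the start in CXCL8, 89 in CXCL6, 90 in CXCL5, 78 in CXCL3 and 77 in CXCL2. A second kB match, 53 bases before the start, is present in CXCL3 and CXCL2. CXCL8 alone of the 5 has a match to AP-1, at 137 bases, and to TATA, at 31 bases. Over 35116 windows of the same length in the table, 1.45% hold the first kB motif, 0.826% the second, 5.78% the third and 7.51% any of them. Of the 128 genes 95 had an entry, with 146 windows among them, and 24 of those windows (16.4%) hold a kB motif. The windows of CXCL6 and CXCL5 are 85.9% identical over 249 aligned bases, and those of CXCL3 and CXCL2 are 83.3% identical over 234. A match is only a description of the letters.

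The second set belongs to PTGS2 and IL24, which read higher with miR-95 by more than 1.5-fold and lie on chromosome 1. The windows are chr1:186680424-186680673 on the minus strand for PTGS2 and chr1:206897193-206897442 on the plus strand for IL24, from the same table and marked the same way. PTGS2 has a C/EBP match 133 bases and a TATA match 32 bases before the start. None of the 6 motifs is in the IL24 window, and none of the kB letter patterns used here matches that of PTGS2. These patterns do not cover every form of a kB site, so a window without a match may still hold one.
PTGS2: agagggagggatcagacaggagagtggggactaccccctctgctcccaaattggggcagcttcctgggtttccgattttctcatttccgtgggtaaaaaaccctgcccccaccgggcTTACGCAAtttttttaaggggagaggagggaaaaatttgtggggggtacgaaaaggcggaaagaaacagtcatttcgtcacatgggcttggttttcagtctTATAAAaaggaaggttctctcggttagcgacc
IL24: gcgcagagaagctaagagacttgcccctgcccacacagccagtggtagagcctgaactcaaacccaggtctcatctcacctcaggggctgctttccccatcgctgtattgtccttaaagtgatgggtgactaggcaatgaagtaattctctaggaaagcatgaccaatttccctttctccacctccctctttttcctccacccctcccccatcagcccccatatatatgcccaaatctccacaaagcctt

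Most of the 128 genes gave a low signal in these cells. A gene was counted as detected when at least 1 array read it at or above that array's median over genes. Of the 128, 31 were detected (24.2%), against 51.1% of all 13864 genes, and 27 lay at or above the median on both arrays. CXCL8 and IL24 reached it on the miR-95 array only, and CCL28 and IL7 on the control array only. Just under it lay IL17RE, at 7.39 with miR-95 and 7.38 with the control, and ICAM2, at 7.27 with miR-95 and 7.04 with the control. A probe set's signal depends on its probes as well as on its transcript, so the median divides signals and does not rank genes by transcript number.

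The detected genes were spread over ligands, receptors and transcription factors. They comprised 3 CXC chemokines (CXCL2, CXCL8, CXCL16), 2 CC chemokines (CCL26, CCL28) and the cytokines IL7, IL11, IL18, IL24, IL33, LIF and CSF1. The receptors were IL4R, IL6R, IL7R, LIFR, OSMR, IL17RA, IL17RB, IL17RC and IL17RD. The 6 NF-kB symbols NFKB1, NFKB2, NFKBIL1, REL, RELA and RELB were detected, as were the adhesion molecules ICAM1 and ICAM3, and the symbols IL32 and IL4I1. None of the 14 chemokine receptors was detected, nor were TNF and both prostaglandin synthases.

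**Figure D1:**
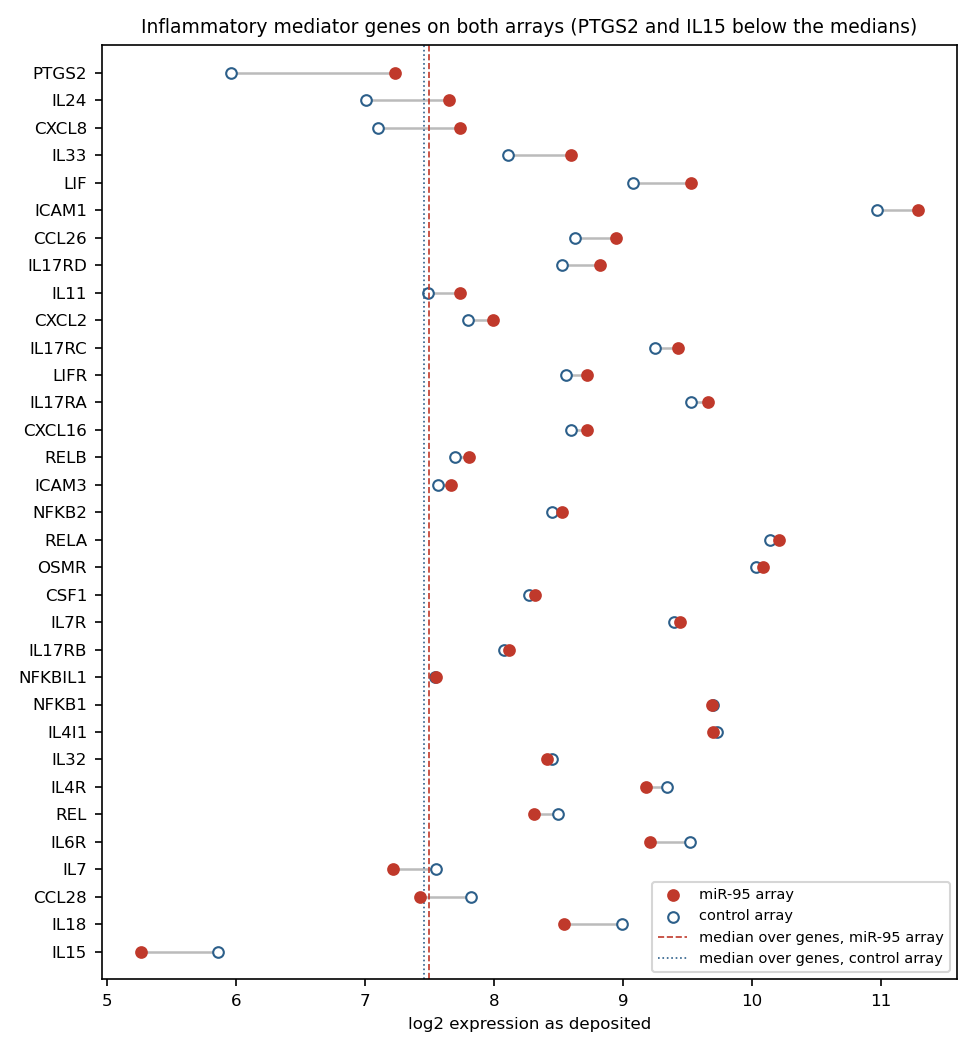
Log2 expression as deposited (x axis) of the 31 detected genes, with PTGS2 and IL15 added, on the miR-95 array (filled points) and the control array (open points), ordered by difference. The dashed and dotted lines are the array medians over genes, 7.495 and 7.46. PTGS2, IL24 and CXCL8 show the widest gaps towards miR-95, and IL15 and IL18 the widest towards the control.

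Past 1.5-fold, 2 of the 31 detected genes read higher with miR-95 and 0 read lower. The background over the 7081 detected genes was 0.395% higher (28 genes) and 0.861% lower (61 genes). Both of the higher ones, CXCL8 and IL24, lay just past the limit and were detected only because of the higher miR-95 value, so that 0 of the 27 genes above the median on both arrays passed it in either direction. An offset of 16 added on the linear scale also took both under it, to 0.553 and 0.55. Without any filter 3 of 128 read at least 1.5-fold higher (0.426% of all genes) and 1 at least 1.5-fold lower (0.923% of all genes). The added genes were PTGS2 and IL15. Nearest inside the limit were IL33 among detected genes, 1.37-fold higher, and IL18, 1.40-fold lower.

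Positive differences were seen in 21 of 31 (67.7%), against 40.6% of all detected genes, and the median was 0.045 against -0.035. Among the 27 above the median on both arrays, where a high value on 1 array could not decide entry, 19 were positive and 8 negative, against 40.3% positive among the 6798 such genes overall. As deposited, without centring, the shares were 71% of the 31 and 49.4% of all detected genes. Of the 31, 14 (45.2%) lay within 0.1 of no difference, against 47.7% of all detected genes. Of the 97 genes below the detection rule 43 were positive and 54 negative, with a median of -0.015, equal to that of all 6783 undetected genes. Signs of near-zero differences depended on the centring: as deposited, 11 of the 128 were positive that are negative here.

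**Figure D2:**
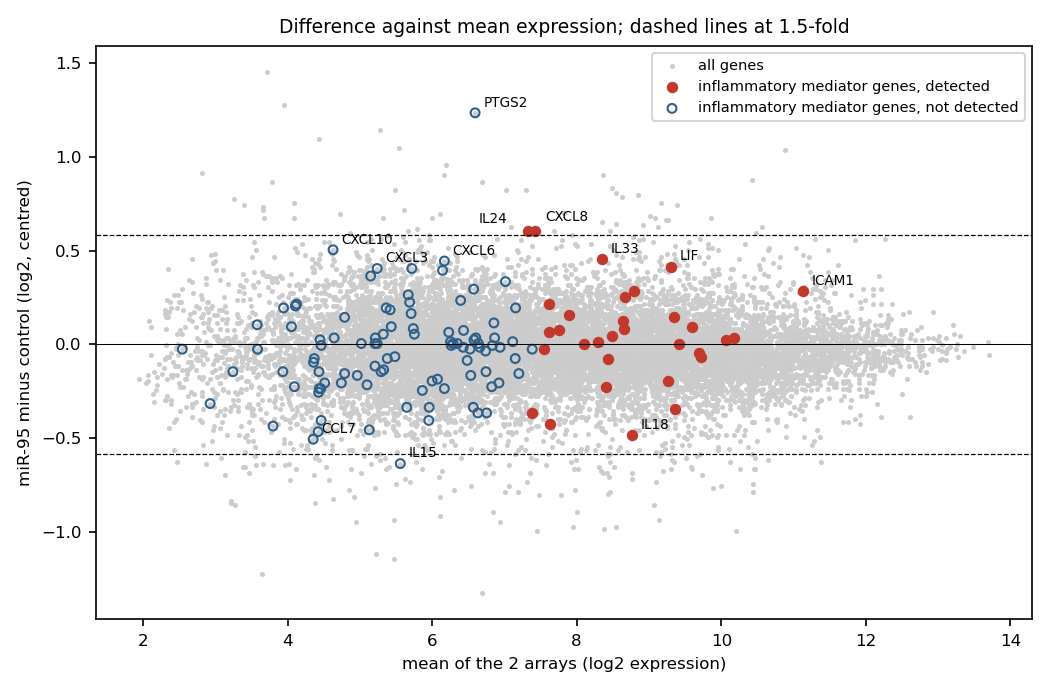
Difference between the miR-95 and control arrays (y axis, log2, centred) against the mean of both arrays (x axis, log2 expression) for 13864 genes in grey, with the detected inflammatory mediator genes filled and the undetected ones open. Dashed lines mark 1.5-fold. PTGS2 stands apart at 1.24, and CXCL8 and IL24 lie just above the upper line.

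Among prostaglandin synthases, PTGS2, the inducible cyclooxygenase that starts prostaglandin synthesis at sites of inflammation, had the widest gap of the 128. Its values were 7.23 with miR-95 and 5.96 with the control. Both values are below the array medians, so it did not count as detected. After centring it was 2.35-fold higher with miR-95 and ranked 3rd from the highest of all 13864 genes, behind the microRNA precursors MIR4266 and MIR320D1, which read below 5 on both arrays. It was the only 1 of 2324 genes with a mean between 6 and 7 that was at least 2-fold higher, where the robust SD of the differences was 0.163. In the other direction that range also held LUM, a matrix proteoglycan, at 6.04 with miR-95 and 7.33 with the control. Its difference of -1.325, a gap of like size, was the lowest of all 13864 genes. Whether either gap exceeds the variation between cultures was not tested. Under the alternative scalings and the offset, the PTGS2 difference ran between 1.05 and 1.27.

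PTGS1, the constitutive cyclooxygenase, read 6.53 with miR-95 and 6.26 with the control, a difference of 0.235. Of 21 other genes of the prostaglandin pathway, 15 were measured and 9 detected, with 5 positive and 4 negative differences. Their median was 0.025 and 0 passed 1.5-fold. Over all detected genes the median was -0.035 and 40.6% were positive. PTGES, the inducible synthase of prostaglandin E2, read 9.48 with miR-95 against 9.14 with the control, 1.24-fold higher. TBXAS1, thromboxane synthase, differed by 0.155. The differences of PTGES3, a cytosolic prostaglandin E synthase that is also a co-chaperone, and PTGFR, the receptor of prostaglandin F, were -0.22 and -0.215. HPGD, which inactivates prostaglandins, lay below the medians and differed by 0.165.

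The ELR chemokines attract neutrophils through CXCR1 and CXCR2. CXCL8, which encodes interleukin 8, read 7.74 with miR-95 and 7.10 with the control and was 1.52-fold higher after centring. Its neighbour CXCL6 read 6.41 with miR-95 against 5.93 with the control, 1.36-fold higher. CXCL3 read 5.46 with miR-95 against 5.02 with the control, 1.32-fold higher. CXCL2, the other detected gene of this kind, read 7.99 with miR-95 against 7.80 with the control, 1.11-fold higher. CXCL5 went the other way, at 6.73 with miR-95 and 6.92 with the control, a difference of -0.225. CXCL6 and CXCL5 differed in opposite directions, from values below the medians on both arrays. Whether the promoter letters printed above bear on any of these differences was not tested. These genes are paralogs, and hybridisation of one transcript to the probes of another was not tested.

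Other genes of the same stretch of chromosome 4 were also read. PF4, platelet factor 4, was at 7.73 with miR-95 and 7.56 with the control, a difference of 0.135. PPBP, the platelet basic protein precursor, is a further ELR chemokine whose symbol lies outside the name patterns, and it differed by 0.195. PF4V1 differed by -0.085, and both genes lay below the medians. The receptors CXCR1 and CXCR2 lay far below the medians, at 5.24 and 4.36 with miR-95 and 5.35 and 4.56 with the control.

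**Figure D3:**
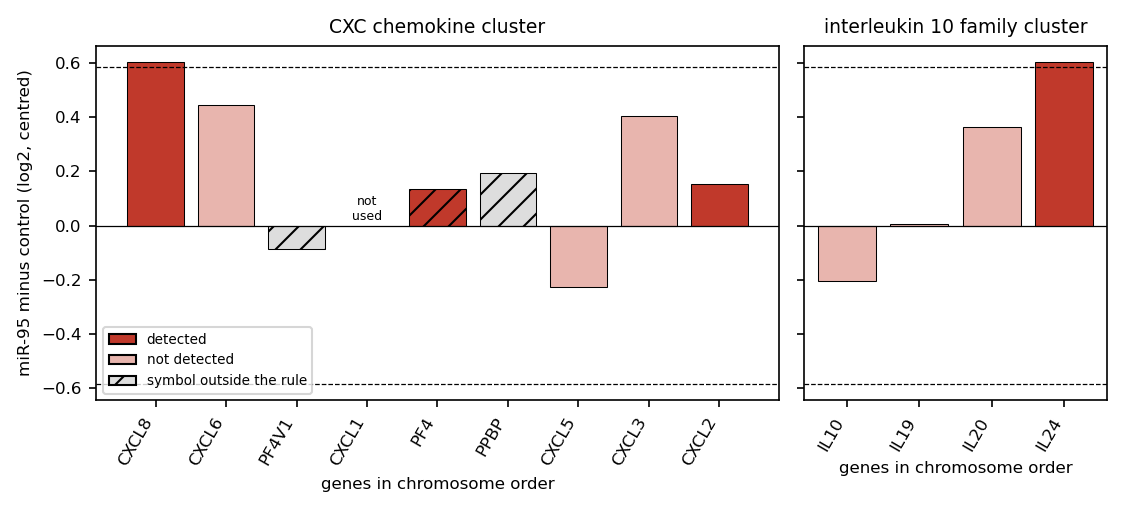
Differences between the miR-95 and control arrays (y axis, log2, centred) of genes in chromosome order for the CXC chemokine cluster around CXCL8 (left) and the interleukin 10 family cluster around IL24 (right). Filled bars are detected genes, pale bars undetected ones and hatched bars genes whose symbols lie outside the name patterns. CXCL8, CXCL6 and CXCL3 stand above 0.4 and CXCL5 below zero; in the right panel IL24 and IL20 are high and IL10 is below zero.

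The 8 CXC chemokines within the name patterns that lack the ELR motif, and the CX3C chemokine CX3CL1, gave mixed values. CXCL16, a transmembrane chemokine and the only detected one of them, read 8.72 with miR-95 and 8.60 with the control, a difference of 0.085. CXCL10, induced by interferon and a ligand of CXCR3, read 4.90 with miR-95 against 4.36 with the control, 1.42-fold higher but at a dim signal where the offset lowered its difference from 0.505 to 0.296. CXCL11, another ligand of CXCR3 and its neighbour, differed by -0.215, and CXCL9 by 0.025. CXCL13, the B cell attractant, differed by -0.465. CXCL12 differed by 0.065 and its receptor CXCR4, known for its part in homing to bone, read 5.94 with miR-95 against 5.50 with the control, 1.32-fold higher and below the medians. CXCL14, CXCL17 and CX3CL1 differed by -0.135, 0.165 and 0.075.

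Of 22 CC chemokines 2 were detected, with opposite signs. CCL26, eotaxin 3, which attracts eosinophils, read 8.95 with miR-95 against 8.63 with the control, 1.22-fold higher. CCL28, a mucosal chemokine, read 7.43 with miR-95 against 7.82 with the control, 1.34-fold lower. The monocyte attractants CCL2, CCL7 and CCL8, which lie side by side on chromosome 17, were dim and differed by -0.255, -0.505 and -0.435, while CCL11 between them differed by 0.215. Their signals reached at most 4.32 with miR-95 and 4.59 with the control, in the range below 5 where the robust SD of all genes was 0.222. CCL24, eotaxin 2, also below the medians, differed by 0.265. Among the 14 chemokine receptors differences ran from -0.235 (CCR2, CCR6 and CXCR2) to 0.405 (CXCR4). Of these, 8 were positive and 6 negative, against 43.1% positive over all genes. CCR7, which guides cells to lymph nodes, and CCR1 differed by 0.295 and 0.205.

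Among interleukins of the IL-10 family, IL24, a secreted cytokine also known as melanoma differentiation associated gene 7, was the one detected. It read 7.65 with miR-95 against 7.01 with the control, 1.52-fold higher. Like that of CXCL8, its difference ranked 49th from the highest of all 13864 genes, without the detection rule. IL20, next to it on chromosome 1 and a ligand of overlapping receptors, read 5.35 with miR-95 against 4.95 with the control, 1.29-fold higher. IL19 and IL10, the other neighbours, differed by 0.005 and -0.205, while IL22 and IL26 differed by -0.145 and -0.025. IL20RB, a subunit of the receptors of IL19, IL20 and IL24, read 6.28 with miR-95 and 6.25 with the control.

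The interleukin 1 family had 2 positive and 11 negative differences of 13, against 43.1% positive over all 13864 genes. Its median was -0.155, against -0.025 over all genes, and only 2 of the 13 were detected. Its 2 detected cytokines differed in opposite directions. IL33, a nuclear alarmin, read 8.60 with miR-95 against 8.11 with the control, 1.37-fold higher. IL18, which is matured by inflammasome caspases, read 8.54 with miR-95 against 8.99 with the control, 1.40-fold lower. Their receptor genes were below the medians: IL1RL1, which binds IL33, differed by -0.075, and IL18R1 and IL18RAP, the IL18 receptor, by -0.365 and -0.155. The antagonists IL1RN, IL36RN and IL18BP, which block signalling by this family, differed by -0.405, -0.115 and -0.155. The shared accessory chain IL1RAP differed by -0.205 and IL1RAPL1, a synaptic relative, by -0.455. The 2 positive differences were those of IL33 and of IL37, an inhibitory cytokine below the medians, at 0.035.

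In the interleukin 6 family, LIF, LIFR and IL11 read higher with miR-95 and IL6R lower. LIF, leukaemia inhibitory factor, read 9.53 with miR-95 against 9.08 with the control, 1.33-fold higher. LIFR, its receptor, read 8.72 with miR-95 against 8.56 with the control and differed by 0.125. IL11, which signals through the same shared subunit, read 7.74 with miR-95 against 7.49 with the control, a difference of 0.215. OSMR, the oncostatin M receptor, was level at 10.09 with miR-95 and 10.03 with the control, and its ligand OSM, below the medians, differed by -0.245. IL6R read 9.21 with miR-95 against 9.52 with the control, 1.27-fold lower. IL27, of the interleukin 12 family, stayed under the medians and differed by 0.335, and IL31RA differed by -0.365.

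Of 6 interleukin 17 receptor symbols 4 were detected, all with positive differences, against 40.6% positive among all detected genes. The other 2, IL17RE and IL17REL, lay below the medians and differed by -0.025 and -0.145. IL17RD, also known as Sef, an inhibitor of growth factor signalling, read 8.82 with miR-95 against 8.53 with the control, 1.19-fold higher. IL17RC read 9.43 with miR-95 against 9.25 with the control, a difference of 0.145. IL17RA, the shared chain, read 9.66 with miR-95 against 9.53 with the control, a difference of 0.095. IL17RB was level, at 8.12 with miR-95 and 8.08 with the control. All 6 ligands of that family lay below the medians, from -0.225 for IL17F and -0.205 for IL17A to 0.145 for IL25.

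Cytokines and receptors of the common gamma chain and interleukin 4 families had 3 positive and 7 negative differences of 10. Over all 13864 genes 43.1% were positive, and only 3 of the 10 were detected. IL15, which sustains natural killer and memory T cells, read 5.26 with miR-95 against 5.86 with the control, 1.55-fold lower and under the medians on both arrays. IL7, a lymphocyte growth factor, read 7.22 with miR-95 against 7.55 with the control, 1.29-fold lower. Its receptor IL7R was level, at 9.44 with miR-95 and 9.40 with the control. IL4R, shared by the receptors of interleukins 4 and 13, read 9.18 with miR-95 against 9.34 with the control, a difference of -0.195. The ligands IL4 and IL13 lay below the medians and differed by 0.195 and -0.335, and IL21R differed by 0.395.

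The remaining ligands differed little or were dim. CSF1, the macrophage growth factor, read 8.32 with miR-95 and 8.27 with the control, a difference of 0.015, while its receptor CSF1R, a marker of macrophages, lay below the medians and differed by -0.405. IL34, the other ligand of CSF1R, differed by -0.195, CSF3 by -0.025, its receptor CSF3R by 0.085 and TNF by -0.085, from 6.46 with miR-95 and 6.51 with the control. IL32 and IL4I1, an amino acid oxidase named for its induction by interleukin 4, differed by -0.075 and -0.065, and IL16, below the medians, by 0.005.

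The NF-kB subunits were all detected and nearly level. RELA, the main activating subunit, read 10.21 with miR-95 and 10.14 with the control, a difference of 0.035. NFKB1, the precursor of p50, read 9.69 with miR-95 and 9.70 with the control, a difference of -0.045. NFKB2, the precursor of p52, read 8.53 with miR-95 and 8.45 with the control, a difference of 0.045. RELB differed by 0.075. REL, the subunit prominent in lymphocytes, read 8.31 with miR-95 against 8.50 with the control, a difference of -0.225, the widest of the group. NFKBIL1, named for its likeness to the inhibitors, differed by -0.025. The sizes of these differences, except that of REL, were below the spread of 0.126 between probe sets of 1 gene, taken from 68 detected genes with several probe sets. Levels of these messenger RNAs do not measure NF-kB activity, which is set by the release and modification of the proteins.

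Of 44 upstream and downstream genes of NF-kB signalling outside the name patterns, 35 were measured and 27 detected, with 13 positive and 14 negative differences, a median of -0.015 and 0 past 1.5-fold. TAB3, an adaptor of the kinase TAK1, read 10.23 with miR-95 against 9.69 with the control, 1.42-fold higher. MAP3K14, the kinase NIK of the alternative pathway, was 1.23-fold higher. CHUK, the kinase IKK alpha, read 9.02 with miR-95 against 9.40 with the control, 1.33-fold lower, and TBK1, a kinase of innate immune signalling, was 1.30-fold lower. These counts lie near those of all detected genes, of which 40.6% were positive.

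ICAM1, an adhesion receptor for leukocyte integrins and a long-known NF-kB target, read 11.29 with miR-95 against 10.97 with the control, 1.22-fold higher. ICAM2 and ICAM3 differed by 0.195 and 0.065. Among 27 other NF-kB target genes, 20 were measured and 12 detected, with 7 positive and 5 negative and a median of 0.07. CYLD, detected and positive, and TRAF1, not detected, were also counted among the NF-kB signalling genes above. Over all detected genes 40.6% were positive and the median was -0.035. Past 1.5-fold, 1 of the 12 was higher and 1 lower, against 0.395% and 0.861% of all detected genes. The list was chosen with earlier results of these data known. BCL2A1, a survival protein of the BCL2 family, read 8.01 with miR-95 against 7.37 with the control, 1.52-fold higher. HAS2, a hyaluronan synthase, read 7.27 with miR-95 against 7.88 with the control, 1.56-fold lower. BCL2A1 reached the median on the miR-95 array only and HAS2 on the control array only. Both were thus detected only because of their higher value, and neither counts among genes above the median on both arrays. EFNA1, an ephrin ligand, was 1.16-fold higher, and SDC4, a cell surface proteoglycan, 1.31-fold lower.

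Cytokine receptors signal through JAK kinases and STAT factors. Of 26 listed genes of this signalling, 16 were measured and 9 detected, with 4 positive and 5 negative differences. Their median was -0.055 and 0 passed 1.5-fold. Over all detected genes the median was -0.035 and 40.6% were positive. TYK2, a Janus kinase, and SOCS4, a feedback inhibitor, each differed by 0.205. SOCS6 read 9.33 with miR-95 against 9.76 with the control, 1.38-fold lower, and JAK2 differed by -0.125. Of 12 genes for AP-1, C/EBP and early factors, 9 were measured and 5 detected, from FOSL2 at -0.135 and JUN at -0.095 to JUND at 0.015 and JUNB at 0.185. The listed C/EBP factors, CEBPA, CEBPB and CEBPD, were not among those measured.

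**Figure D4:**
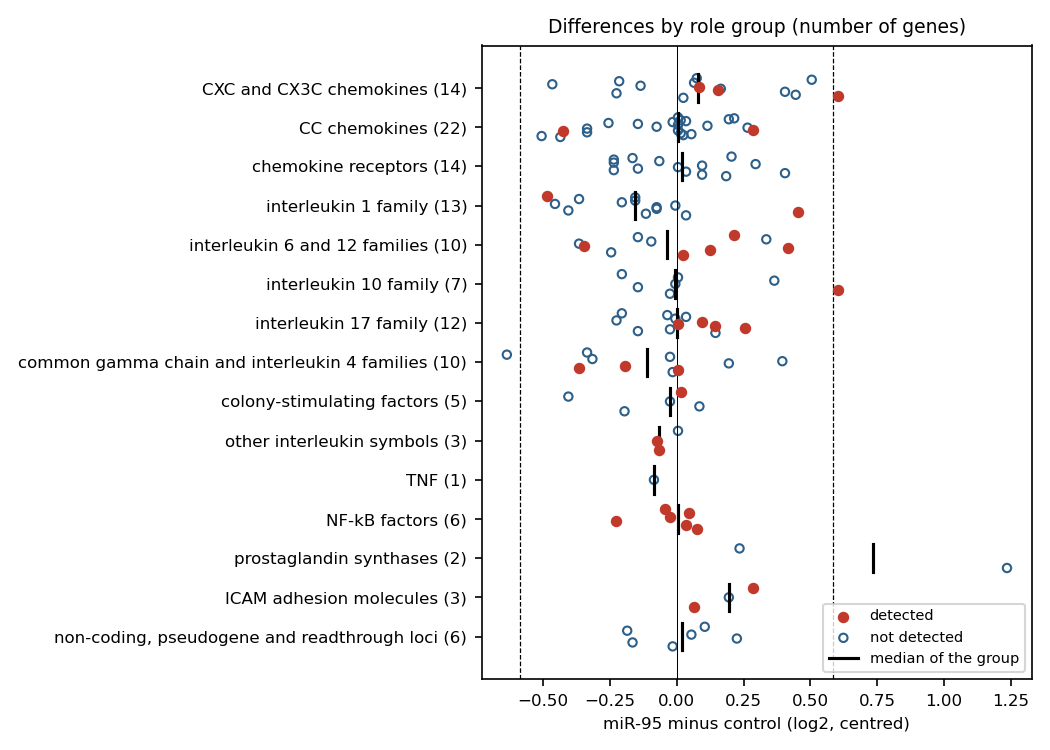
Differences between the miR-95 and control arrays (x axis, log2, centred) of the 128 genes by role group, with detected genes filled, undetected genes open, a black bar at each group's median and dashed lines at 1.5-fold. The NF-kB factors lie close to zero apart from REL, the interleukin 1 family has its median at -0.155, and PTGS2 is the far right point.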

How the data were processed

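The series holds 2 samples, 1 per group, grouped by their treatment label. The authors deposited log2 expression values per probe set, made with Affymetrix Expression Console 1.2 per the submitters' processing notes. The sources used here do not give the summarisation, background correction, array scaling or genome build. The log2 scale was read from the values. Of 23641 probe sets, 14088 carried 1 gene symbol in the platform annotation and 0 several. All 14088 Entrez identifiers matched RefSeq GRCh38.p14, used for names and gene order. Probe sets of 1 gene were averaged, giving 13864 genes, each array was centred on its median over genes, and a gene was detected when at least 1 array was at or above its median. Folds of 1.5 and 2 served as limits and no test was possible. Every detected gene is named, with undetected ones that passed 1.5-fold, belonged to the CXC and CX3C chemokine, NF-kB or prostaglandin synthase groups, or were among the 3 widest each way of their group. For the other lists, genes named are those with the 2 widest detected differences each way and those past 1.5-fold, with a few chosen after their values were seen (HPGD, PF4, PPBP, PF4V1, LUM, MIR4266 and MIR320D1). Other genes named outside these rules were CCL2, CXCR1, IL17RE, IL18BP, IL18R1, IL18RAP, IL1RAP, IL1RL1, IL20RB, IL36RN, CD14, LYZ, TYROBP, CYLD and TRAF1. The genes and lists were chosen with earlier results of these data known. Python 3.11.15, pandas 2.3.3 and statsmodels 0.14.6 were used, and the steps were tested on simulated data. The alternatives were no centring, the median of all probe sets, loess (span 0.4), quantile normalization, 4 other detection filters, the brightest probe set and an offset of 16. With 1 array a group, precision is limited by the number of arrays.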

Additional observations from a re-analysis of the deposited data

How the results depend on the processing

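The 5 summary results (detected genes, genes past 1.5-fold each way, median difference and share of positive differences) were recomputed under 10 alternatives. The count of genes at least 1.5-fold higher was 2 in the main setting and under every scaling and the brightest probe set. With PTGS2 added it was 3 with detection at the 25th percentile and with no detection filter. It was 0 with detection on both arrays and 0 with the offset of 16, because CXCL8 and IL24 lie near both limits. With detection at the 75th percentile the count was also 0, because neither gene reached that level. The count of detected genes was 74 with the 25th percentile and 11 with the 75th, against 31. With no detection filter 1 gene was at least 1.5-fold lower, against 0 in the main setting. The share of positive differences was then 50%, against 67.7% in the main setting, beside 43.1% of all genes without a filter. The median difference moved by less than the spread between probe sets under each of the 10. Of 26 single genes under 6 alternatives, 0 changed sign, and 5 of 156 values moved by more than that spread, all with the offset (PTGS2 to 1.05, CXCL10 to 0.296, CXCL3 to 0.277, IL15 to -0.48 and CCL7 to -0.296). No paired analysis was possible because each group has 1 array. Array normalization may hide a shift common to all transcripts.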

Other observations

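The 6 loci whose symbols matched without naming a cytokine or receptor protein all lay below the array medians. IL12B-AS1, antisense to the gene of an interleukin 12 subunit, read 5.82 with miR-95 and 5.56 with the control, a difference of 0.225. IL21R-AS1 read 4.90 with miR-95 and 5.03 with the control, a difference of -0.165, while IL21R, the receptor gene it is named after, read 6.36 with miR-95 and 5.93 with the control, a difference of 0.395. CXCR2P1, a pseudogene, differed by -0.185 and its parent CXCR2 by -0.235, and hybridisation of one to the other's probes was not tested. The readthrough transcript CCL15-CCL14 differed by 0.105, the divergent transcript IL10RB-DT by 0.055 and TNFRSF14-AS1 by -0.015.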
